A study of Homo sapiens with 10 samples.

Results

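The genes of polyamine metabolism were followed in 10 RNA-sequencing libraries of SH-SY5Y, a human neuroblastoma cell line. The members were 9 genes taken by symbol from a deposited table of 58174 genes: ODC1, AMD1, SRM, SMS, SAT1, OAZ1, OAZ2, AZIN1 and MTAP. The genes form a known pathway, and the list was selected on the lower SRM value of TDP-43 N352S cells against wild type. For that reason, values of members in that comparison are given here as a description. Where they are set beside a threshold below, that is no test of them. All 9 members had a mean of at least 1 TPM (the RSEM abundance unit, a length-scaled share of each library) over the 10 libraries, as did 17118 genes in all, which were the genes tested.

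TDP-43 is a mainly nuclear protein that binds RNA and is the product of TARDBP, and the study asked how its loss or its mutation changes gene expression. In the first experiment, 3 siControl libraries came from cells given a control siRNA pool and 3 siTDP-43 libraries from cells given an siRNA pool against TDP-43. Both pools were used at 50 nM for 96 hours. In the second experiment, 2 libraries came from TDP-43 wild type cells (numbered 79 and 80) and 2 from cells homozygous for mutant TDP-43 N352S (81 and 82), made by genome editing. All groups are the same line, grown with fetal bovine serum. The labels do not say how many edited clones or separate cultures stand behind the libraries, so p-values measure only the spread between these libraries, and a clone and its genotype cannot be told apart. The depth of the libraries is unknown because TPM keep none, and no counting interval can be given.

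Polyamines are small positively charged molecules that bind nucleic acids and are needed for growth and translation. Putrescine is made from ornithine by ornithine decarboxylase (ODC1). Spermidine synthase (SRM) and spermine synthase (SMS) then add aminopropyl groups, which come from S-adenosylmethionine after its decarboxylation by AMD1, and MTAP salvages the methylthioadenosine left over. Antizymes (OAZ1 and OAZ2) bind ornithine decarboxylase and send it for degradation, the antizyme inhibitor AZIN1 captures antizyme, and SAT1 acetylates spermidine and spermine for breakdown or export. In neuroblastoma, ODC1 is known as a target of MYCN.

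Stretches of sequence are shown for the members that MYC proteins are known to drive and for the site that makes antizyme translation respond to polyamines. MYC and MAX bind the E-box CACGTG, which reads the same on both strands. In RefSeq promoter windows (GRCh38.p14, from 250 bases before to 50 after a start), 8 of the 9 members had a window, with 11 windows in all. The E-box was in 2 of the 11 windows, one of SRM and one of ODC1, against 7.26% of 35116 windows of all genes. In SRM it stood 199 bases before the start. The first sequence is the part of the SRM window outside exons (chr1:11060025-11060268, minus strand), and the next pair are sites in the first intron of ODC1 (chr2:10448024-10448053 and chr2:10447990-10448019, minus strand) at its downstream RefSeq start. Capitals mark the E-box.
SRM promoter: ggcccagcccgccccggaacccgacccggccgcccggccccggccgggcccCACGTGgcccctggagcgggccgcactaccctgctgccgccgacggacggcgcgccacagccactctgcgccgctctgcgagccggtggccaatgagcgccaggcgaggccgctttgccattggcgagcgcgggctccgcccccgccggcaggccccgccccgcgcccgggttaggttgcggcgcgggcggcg
ODC1 E-box 1: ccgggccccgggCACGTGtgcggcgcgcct
ODC1 E-box 2: ggcctgcggagaCACGTGgtcgccgagcgg
Full-length antizyme is made only when ribosomes shift frame at the stop codon of the first reading frame, which polyamines promote. The next sequences are those sites in GENCODE 29 transcripts, found in 7 of 11 transcripts of OAZ1 and 5 of 9 of OAZ2. Capitals mark the last codon read before the shift and the stop codon.
OAZ1 shift site: ctcggtggtgcTCCTGAtgcccctcaccca
OAZ2 shift site: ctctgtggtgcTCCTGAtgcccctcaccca
The OAZ1 and OAZ2 stretches were identical at 29 of 30 positions. TPM of these genes measure the transcript and not how often the shift is made. TDP-43 is known to bind GU-rich RNA, and the repeat GTGTGT was in the longest coding transcript of 5 of 9 members, against 59.9% of 12682 tested genes. In the promoter windows, GTGTGT (searched on both strands) was in that of MTAP only among members, against 13.5% of all windows. A match describes the letters and not a site that is used.

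The label check was the targeted gene. TARDBP had a mean of 255.8 ± 0.433 TPM (SD, n = 3) without and 64.4 ± 2.91 TPM (n = 3) with its siRNA. The wild type mean was 200.5 ± 6.97 TPM and the N352S mean 122.6 ± 0.332 TPM (n = 2 each). All 8 noradrenergic markers that define SH-SY5Y reached 1 TPM, with sums of 4051 to 5467 TPM per library. Of markers of other cell types, those of fibroblasts (6 of 6 detected) summed to 86.7 to 94.4 TPM in siControl, 123.7 to 132.4 in siTDP-43, 68.4 to 90.1 in wild type and 65.7 to 66.9 in N352S libraries. Those of Schwann cells (with the defining marker SOX10 below 1 TPM) summed to 57.4 to 58.3, 32.2 to 34.4, 53.7 to 60.4 and 64.2 to 68.9 TPM in the same order, and their part in the results was not tested. Endothelial markers summed to at most 0.6 TPM, and CDH5 was listed at 0 in every library. Leukocyte markers summed to at most 2.73 TPM, with CD3E listed at 0, and epithelial markers to at most 5.12 TPM. Mitochondrially encoded genes took 12 to 14.3% of TPM in siControl and 15.5 to 16.2% in siTDP-43 libraries. With these genes left out and TPM rescaled, 4 of the 9 members were again called lower after knockdown and 0 higher, and of the calls over all genes 65.7% were lower, beside 76.2% with them. In bulk libraries, fewer cells of a type and less RNA per cell cannot be told apart.

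The members spanned a wide range of levels. Averaged over the 10 libraries on the length-scaled TPM scale, OAZ1 was highest at 516.7 TPM, above 98.7% of tested genes, followed by AZIN1 (200.5), OAZ2 (176.5), ODC1 (162.5), SMS (115.2), SRM (103.8), AMD1 (68.2) and MTAP (31.8). SAT1 was lowest at 8.71 TPM, above 39.1% of tested genes. This order is of means over all libraries and differed between groups: in wild type libraries ODC1 (206.1 TPM) was above AZIN1 (196.7) and OAZ2 (178.1). OAZ1 was highest and SAT1 lowest in each of the 4 groups.

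**Figure D1:**
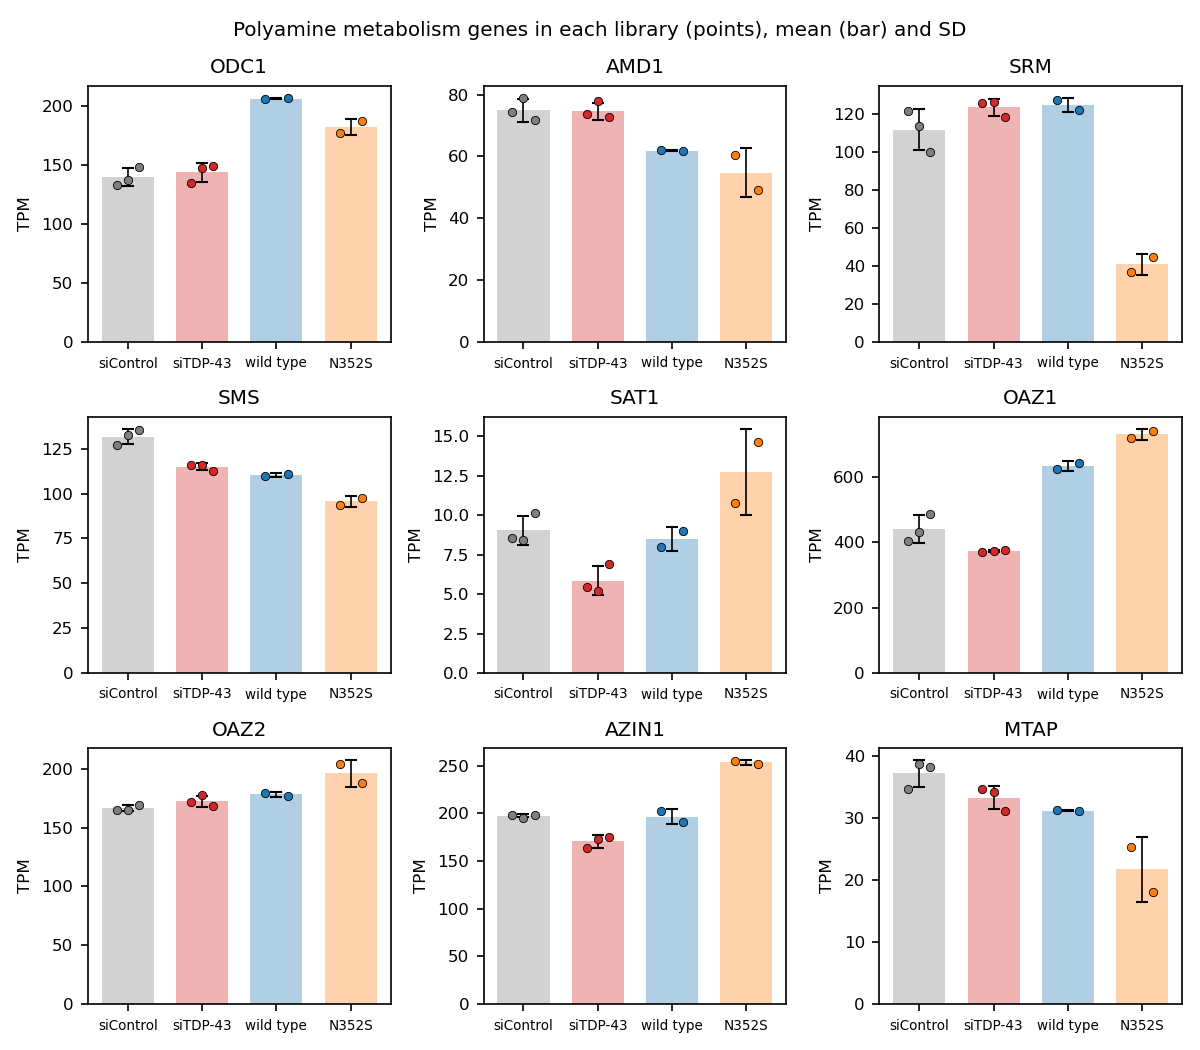
TPM of each of the 9 members in each library (points, 3 for each siRNA group and 2 for each genotype), with the mean of each group as a bar and its SD as an error bar. SRM lies at 37 and 44.8 TPM in the N352S libraries and at 100.2 TPM or more in the other 8.

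The knockdown comparison asked how depletion of TDP-43 changed these transcripts. Spermine synthase, the antizyme OAZ1, the antizyme inhibitor AZIN1 and the acetyltransferase SAT1 fell, and no member rose. The falls were modest for SMS, OAZ1 and AZIN1, which kept 84.5 to 87.3% of their control levels, and larger for SAT1, which kept 64.8%. ODC1, AMD1, SRM, OAZ2 and MTAP did not pass the test. Changes were tested with limma on log2(TPM + 1), with p-values adjusted by Benjamini-Hochberg over all tested genes and genes under 0.05 called. The 4 of 9 members called, all lower, stood against 26.0% of all tested genes called, 19.8% lower and 6.19% higher. The median log2 fold change of the 9 members was -0.16, beside -0.08 for all tested genes. The count moved with the scaling: with median-of-ratios scaled or quantile-normalized values, 2 of the 9 were called lower and 1, OAZ2, higher. The lower count was also 2 without siTDP-43 1 or siTDP-43 2. Under those scalings the calls over all genes moved from 76.2% lower to 51.7% and 51.1% lower, respectively.

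Among the enzymes of synthesis, ODC1 stood at 132.7, 137.5 and 147.8 TPM in the siControl libraries and at 134.2, 147.6 and 148.6 TPM in the siTDP-43 libraries. The groups overlapped, and the log2 fold change was 0.04 ± 0.05 (SE; 95% interval -0.08 to 0.16; limma adjusted p = 0.60). AMD1 measured 74.3, 78.9 and 71.6 TPM in siControl and 73.6, 77.8 and 72.7 TPM in siTDP-43 libraries. Its groups overlapped almost wholly, with a log2 fold change of -0.0041 ± 0.07 (95% interval -0.17 to 0.16; limma adjusted p = 0.98). SRM measured 121.6, 113.8 and 100.2 TPM in siControl and 126.1, 126.4 and 118.5 TPM in siTDP-43 libraries. Here siControl 1 lay within the range of the siTDP-43 libraries, and the log2 fold change of 0.15 ± 0.08 did not pass the test (95% interval -0.04 to 0.34; limma adjusted p = 0.23).

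SMS, which makes spermine from spermidine, measured 127.3, 132.6 and 135.5 TPM in siControl and 115.9, 116.2 and 112.8 TPM in siTDP-43 libraries. Every siTDP-43 library lay below every control, and SMS fell by 0.19 ± 0.04 on the log2 scale (limma adjusted p = 0.0042). Under median-of-ratios scaling the call was lost (limma adjusted p = 0.057). MTAP measured 34.8, 38.7 and 38.2 TPM in siControl and 34.7, 34.2 and 31.2 TPM in siTDP-43 libraries. All siTDP-43 values were below the controls, but the highest of them and the lowest control were nearly the same. Its log2 fold change of -0.16 ± 0.11 did not pass the test (95% interval -0.40 to 0.09; limma adjusted p = 0.33).

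SAT1, the acetylating enzyme of breakdown, measured 8.55, 8.44 and 10.1 TPM in siControl and 5.44, 5.2 and 6.94 TPM in siTDP-43 libraries. The groups did not overlap, and the third library of each group was its highest. SAT1 fell by 0.55 ± 0.13 on the log2 scale (limma adjusted p = 0.016). The call was lost without siControl 3, siTDP-43 1 or siTDP-43 2, with adjusted p up to 0.058 over all alternatives.

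OAZ1, the most abundant member, measured 404.8, 430.3 and 487.1 TPM in siControl and 369.0, 373.2 and 375.7 TPM in siTDP-43 libraries. The siTDP-43 libraries lay close together and below all controls, while the controls spread widely, with siControl 3 highest. The fall was 0.24 ± 0.06 on the log2 scale (limma adjusted p = 0.018). It was not called under either scaling or without siTDP-43 1 or siTDP-43 2, with adjusted p up to 0.075. OAZ2 measured 164.8, 165.1 and 169.2 TPM in siControl and 171.7, 177.5 and 168.0 TPM in siTDP-43 libraries. The groups overlapped through siTDP-43 3, with a log2 fold change of 0.05 ± 0.04 (95% interval -0.04 to 0.14; limma adjusted p = 0.37).

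AZIN1 measured 198.5, 195.6 and 198.4 TPM in siControl and 163.3, 173.0 and 175.5 TPM in siTDP-43 libraries. The controls lay within a few TPM of each other, and all siTDP-43 libraries were lower. AZIN1 fell by 0.21 ± 0.04 on the log2 scale (limma adjusted p = 0.0035), a call lost under quantile normalization (limma adjusted p = 0.071). AZIN1-AS1, on the opposite strand of AZIN1, measured 8.76, 9.3 and 9.05 TPM in siControl and 9.87, 6.85 and 10.0 TPM in siTDP-43 libraries. Whether reads were counted by strand is not stated, and reads of such a pair may then be mixed. The other genes overlapping members reached at most 2.27 TPM in any library, and 9 listed pseudogene copies of members at most 0.78 TPM. Groups did not overlap for 5 of the 9 members, all lower, where 43.6% of tested genes did not overlap, 31.7% lower and 11.9% higher. The third siControl library had the lowest mitochondrial share, the highest OAZ1 and the lowest SRM of its group. Without it the knockdown log2 fold change of SRM was 0.07 ± 0.08 (limma adjusted p = 0.56), that of OAZ1 was -0.16 ± 0.04 (limma adjusted p = 0.014), and 3 members were called lower.

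**Figure D2:**
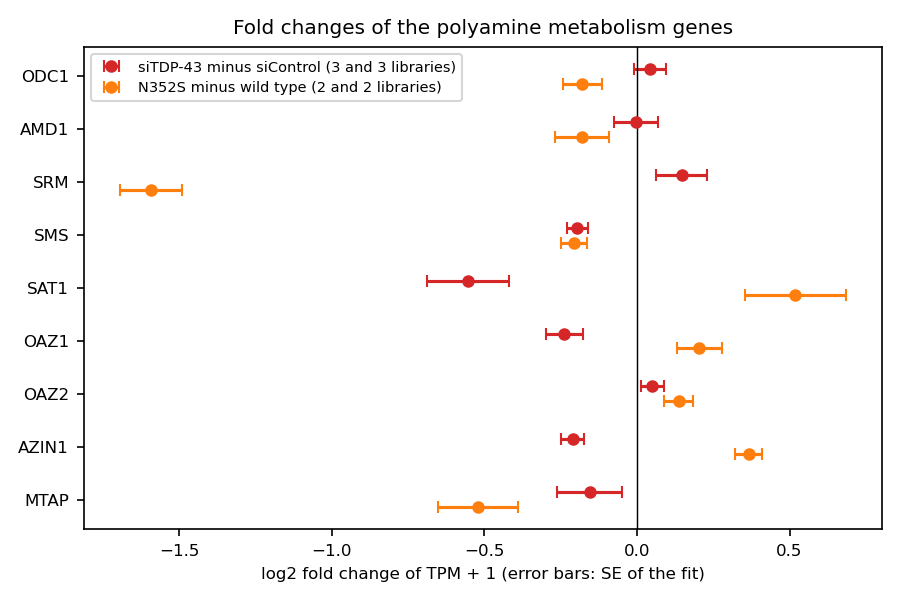
Log2 fold changes of TPM + 1 with SEs (bars) for the 9 members, siTDP-43 minus siControl and N352S minus wild type. In the knockdown comparison the members lie between -0.55 and 0.15, and SRM stands at -1.59 in the N352S comparison.

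Ratios of members within a library do not depend on the TPM total, and 7 pairs were compared. Some pairs share a member, so the pairs are not separate observations. The share of all gene pairs without overlap was not counted, and for single tested genes it was 43.6%. Relative to its antizyme, ODC1 was 0.317 ± 0.0124 (SD, n = 3) of OAZ1 in siControl and 0.385 ± 0.0183 in siTDP-43 libraries. Relative to AZIN1, which resembles ODC1 in sequence without its activity, ODC1 was 0.705 ± 0.0382 and 0.841 ± 0.0164. The ratio of the antizymes, OAZ1 to OAZ2, was 2.65 ± 0.215 in siControl and 2.16 ± 0.068 in siTDP-43 libraries. Each of these 3 ratios separated the groups without overlap, the first and second higher and the third lower after knockdown. SRM was 0.851 ± 0.108 of SMS in siControl and 1.08 ± 0.0216 in siTDP-43 libraries. SAT1 was 0.0818 ± 0.0167 and 0.0476 ± 0.00955 of SRM, and MTAP was 0.336 ± 0.0481 and 0.269 ± 0.00604 of SRM. These ratios to or of SRM also did not overlap. AMD1 was 0.539 ± 0.0478 and 0.522 ± 0.0301 of ODC1, and those groups did overlap (two-sided exact permutation p = 0.6). For the 6 ratios without overlap the two-sided exact permutation p was 0.1, the smallest that 3 against 3 libraries allow, and 0.117 after Benjamini-Hochberg adjustment over the 7 pairs, so none could pass the threshold.

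**Figure D3:**
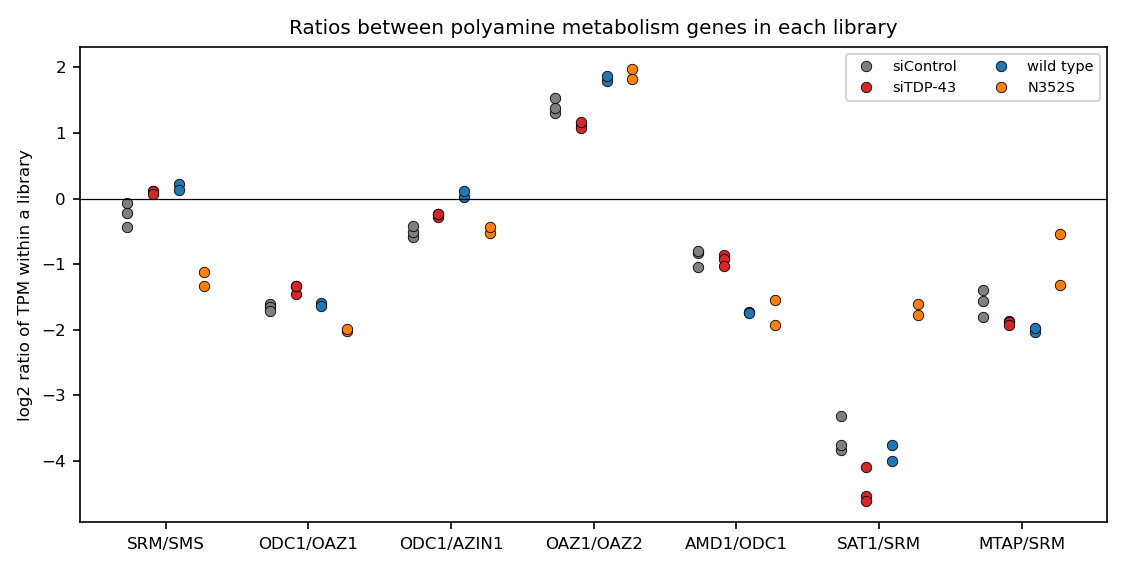
Within-library ratios of TPM for 7 pairs of members (points, 1 per library), shown on a log2 scale by group. The siTDP-43 points lie apart from the siControl points in 6 of the 7 pairs and mix with them for AMD1 to ODC1. Some pairs share a member and are not separate observations.

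The genotype comparison set N352S against wild type cells. Of the enzymes of synthesis, SRM stood out. It measured 127.4 and 122.1 TPM in the wild type and 37 and 44.8 TPM in the N352S libraries, which left 32.8% of the wild type level. The N352S libraries were the lowest of all 10. In order of means the other groups ran from wild type (124.8 ± 3.77 TPM) through siTDP-43 (123.7 ± 4.5) to siControl (111.9 ± 10.9), and each overlapped the next. The log2 fold change of SRM was -1.59 ± 0.10 (SE), and only 0.508% of tested genes were more negative. Over 22 alternative settings this fold change lay between -1.73 and -1.46. Settings that leave out a siRNA library or change the threshold cannot move it, so the range is no test of it. These values were the ones for which SRM was noted.

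The other enzymes of synthesis were lower by less. ODC1 measured 205.9 and 206.3 TPM in wild type and 177.2 and 186.8 TPM in N352S libraries (log2 -0.18 ± 0.06). In both genotype groups ODC1 was above all 6 siRNA libraries, whose highest was 148.6 TPM. AMD1 measured 62.0 and 61.8 TPM in wild type and 60.4 and 49.1 TPM in N352S libraries (log2 -0.18 ± 0.09), so library 81 lay next to the wild type and library 82 well below it. SMS measured 109.6 and 111.1 TPM in wild type and 93.6 and 97.7 TPM in N352S libraries (log2 -0.21 ± 0.04). MTAP measured 31.3 and 31.1 TPM in wild type and 25.4 and 18.1 TPM in N352S libraries (log2 -0.52 ± 0.13). For MTAP too, library 82 was the lower one, and the wild type libraries nearly coincided.

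SAT1 and the regulators had higher values in both N352S libraries than in wild type, and of these 4 genes AZIN1 alone was past the threshold of the fit. SAT1 measured 7.96 and 9.03 TPM in wild type and 10.8 and 14.7 TPM in N352S libraries (log2 0.52 ± 0.16). OAZ1 measured 622.7 and 644.0 TPM in wild type and 718.7 and 741.4 TPM in N352S libraries (log2 0.20 ± 0.07). All 4 genotype libraries were above the highest siRNA library for OAZ1, at 487.1 TPM. OAZ2 measured 179.5 and 176.7 TPM in wild type and 204.0 and 188.2 TPM in N352S libraries (log2 0.14 ± 0.05). AZIN1 measured 202.4 and 191.0 TPM in wild type and 255.3 and 252.0 TPM in N352S libraries (log2 0.37 ± 0.05). The wild type values of AZIN1 lay around those of siControl, and the N352S values were the highest of all 10 libraries. AZIN1-AS1 measured 17.7 and 16.3 TPM in wild type and 24.7 and 21.3 TPM in N352S libraries, in the same direction as AZIN1.

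None of the 9 members overlapped between the genotype groups, 5 lower and 4 higher, where 60.1% of all tested genes did not overlap with 2 libraries a side, 34.7% lower and 25.4% higher. The threshold of the fit is no test of members here. By it, 3 members were lower (SRM, SMS and MTAP) and 1 higher (AZIN1), beside 20.2% of all tested genes called, 11.9% lower and 8.28% higher. The lower calls numbered 1 when only the genotype groups were fitted or wild type 80 was left out. With median-of-ratios scaled values 4 members were higher, with quantile-normalized values 3, and the calls over all genes moved from 58.9% lower to 47.4% and 53.2%. The median log2 fold change of the members was -0.18, beside -0.03 for all tested genes. Nothing is read from these counts, since the choice of genes used this comparison.

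In order of group means, SMS was highest in siControl (131.8 ± 4.17 TPM), then siTDP-43 (115 ± 1.9), wild type (110.4 ± 1.05) and N352S (95.6 ± 2.92), with each group apart from the next in these libraries. SAT1 ran from N352S (12.7 ± 2.74) through siControl (9.04 ± 0.94) and wild type (8.5 ± 0.757) to siTDP-43 (5.86 ± 0.943), and siControl and wild type overlapped. AZIN1 ran from N352S (253.6 ± 2.31) through siControl (197.5 ± 1.65) and wild type (196.7 ± 8) to siTDP-43 (170.6 ± 6.43), with siControl and wild type again overlapping. MTAP ran from siControl (37.2 ± 2.15) through siTDP-43 (33.3 ± 1.9) and wild type (31.2 ± 0.12) to N352S (21.7 ± 5.2), and siTDP-43 and wild type overlapped. For AMD1 the siRNA groups were indistinguishable (74.9 ± 3.64 and 74.7 ± 2.75), above wild type (61.88 ± 0.127) and N352S (54.8 ± 7.98). OAZ2 ran from N352S (196.1 ± 11.2) through wild type (178.1 ± 1.99) and siTDP-43 (172.4 ± 4.78) to siControl (166.4 ± 2.44), and both neighbouring pairs involving siTDP-43 overlapped. OAZ1 ran from N352S (730 ± 16.1) through wild type (633.4 ± 15) and siControl (440.7 ± 42.1) to siTDP-43 (372.6 ± 3.42), with no neighbours overlapping. ODC1 ran from wild type (206.1 ± 0.29) through N352S (182 ± 6.79) and siTDP-43 (143.5 ± 8.02) to siControl (139.3 ± 7.71), and the siRNA groups overlapped. The siRNA and genotype libraries are separate experiments, and levels across them were not tested.

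The effects of knockdown and of N352S were set against each other as a description. The knockdown effect minus the N352S effect contains the N352S values that chose the genes, so nothing is read from its count. By size it was 1.74 for SRM, -1.07 for SAT1, -0.58 for AZIN1 and -0.44 for OAZ1 on the log2 scale, the 4 of 9 members (1 higher, 3 lower) beyond the threshold of the fit, beside 22.0% of all tested genes, 8.2% higher and 13.8% lower. Of the calls over all genes, 62.7% were lower, and 53.5% and 49.3% with those scalings. SAT1, OAZ1 and AZIN1 fell after knockdown and had log2 fold changes of 0.52, 0.20 and 0.37 in N352S cells, of which that of AZIN1 alone was past the threshold. SMS had nearly the same log2 fold change in both, -0.19 and -0.21. As ratios, SRM was 0.427 ± 0.0444 of SMS in N352S and 1.13 ± 0.0449 in wild type libraries. ODC1 was 0.249 ± 0.00382 of OAZ1 in N352S and 0.326 ± 0.00726 in wild type libraries, and 0.718 ± 0.0333 and 1.05 ± 0.0442 of AZIN1. Both ODC1 ratios were thus lower in N352S than in wild type cells, while after knockdown they were higher than in controls. SAT1 was 0.31 ± 0.0253 of SRM in N352S and 0.0682 ± 0.00813 in wild type libraries.

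SRM lies on the short arm of chromosome 1 (hg38, GENCODE 29 annotation, 11054584 to 11060024, minus strand), and the start of TARDBP, the edited gene, lies at -42.2 kb from its own. Its neighbours were therefore described. On the telomere side, DFFA, an inhibitor of the apoptotic nuclease, measured 47.1 and 43.4 TPM in wild type and 19.8 and 17.8 TPM in N352S libraries (log2 -1.23). PEX14, a peroxisomal import protein, measured 23.3 and 23.7 against 11.3 and 13.8 TPM (log2 -0.86), and CASZ1, a zinc finger factor, 7.28 and 8.16 against 4.68 and 2.76 TPM (log2 -0.91). The remaining gene on that side, known only by a clone name and listed at 0 in 1 wild type library, had a log2 of -0.46 and was not past the threshold. TARDBP itself had a log2 of -0.70. On the centromere side, the exosome nuclease EXOSC10 measured 69.8 and 67.1 against 39.0 and 33.9 TPM (log2 -0.89). The growth kinase MTOR measured 33.1 and 34.4 against 21.2 and 19 TPM (log2 -0.72). Further on that side the values changed: FBXO2 had a log2 of -0.13 and DISP3 of 0.25.

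The 10 tested protein-coding genes on the telomere side of SRM had a median log2 of -0.93 in N352S cells, from -1.23 to -0.46, with 8 of the 10 past the threshold and lower. The 10 on the centromere side had a median of 0.11, with 2 lower and 2 higher, and the nearest 5 of them a median of -0.25. After knockdown the telomere-side median was -0.10. A longer stretch, chosen after its values were seen and given with no test, runs from SAMD11 near the chromosome end to MTOR and holds 107 tested protein-coding genes. In it 96 were lower and 0 higher past the threshold, the median log2 was -0.93 with quartiles of -1.10 and -0.78, and the next 107 genes had a median of 0.05 with 3 lower. SRM was the second most negative of the 107 genes, after MXRA8, and lay 0.66 below the median of the stretch on the log2 scale. After knockdown the median of the stretch was -0.07. The part of this stretch in the value of SRM was not tested.

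The other 8 members lay among genes with medians nearer 0 than on the telomere side of SRM. The medians of their 10 nearest tested genes on each side lay between -0.20 (AZIN1, larger start) and 0.15 (ODC1, smaller start) on the log2 scale in N352S cells. On the smaller-start side of ODC1, 4 of the 10 were higher and 0 lower past the threshold, beside 8.28% of all tested genes higher. With 20 genes on that side the median was 0.26, with 11 higher and 0 lower. The part of these genes in the value of ODC1 was not tested. MTAP on chromosome 9 (21802543 to 21937651, plus strand), the next lowest member, had side medians of -0.01 and 0.03. ODC1 lies on chromosome 2 (10439968 to 10448504, minus strand), AMD1 on chromosome 6 (110874770 to 110895713, plus strand) and OAZ1 on chromosome 19 (2269509 to 2273490, plus strand). OAZ2 lies on chromosome 15 (64687573 to 64703281, minus strand) and AZIN1 on chromosome 8 (102826357 to 102893864, minus strand). SMS (21940573 to 21994835) and SAT1 (23783173 to 23786226) lie on the plus strand of chromosome X, and their side medians were -0.02 and -0.04, and -0.03 and -0.06. After knockdown the side medians were -0.23 and -0.16 for SMS, itself at -0.19, and -0.17 and -0.03 for AZIN1, at -0.21. They were -0.15 and -0.17 for SAT1, at -0.55, and 0.24 and 0.05 for OAZ1, at -0.24.

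**Figure D4:**
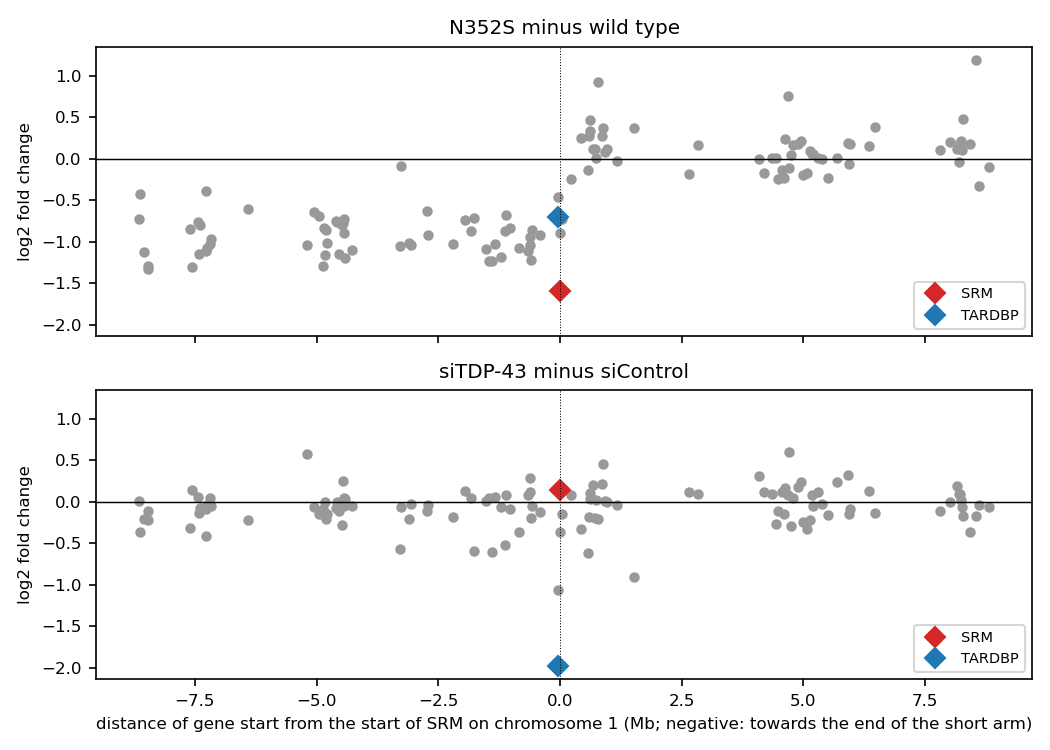
Log2 fold change of TPM + 1 of the tested protein-coding genes around SRM (points), N352S minus wild type above and siTDP-43 minus siControl below, against the distance of each gene's start from that of SRM in Mb, negative towards the end of the short arm. In the upper panel the genes left of SRM lie below 0, with a median of -0.93 for the 10 nearest, and SRM is lowest of the genes shown.

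Other genes of polyamine supply, use and transport were counted from a list of 35, of which 28 were tested. After knockdown 6 were lower and 2 higher (limma, adjusted over all tested genes), beside 26.0% of all tested genes called, 19.8% lower and 6.19% higher. The median log2 was -0.03, beside -0.08 for all tested genes. With either alternative scaling the counts were 3 lower and 6 higher. Ornithine and arginine supply had 2 of 5 tested genes lower. ASS1, a urea cycle enzyme that leads to arginine, fell from 7.09 to 1.82 TPM (log2 -1.54, limma adjusted p = 2.1e-04), and ARG2, the mitochondrial arginase that releases ornithine, fell from 14.4 to 10.1 TPM (log2 -0.48, limma adjusted p = 0.0035). Of the other antizyme and antizyme inhibitor genes 0 of 2 were called, and of the oxidases and acetyltransferases 0 of 3. Hypusine formation, which uses spermidine to modify EIF5A, had 2 of 4 lower: DHPS fell from 202.5 to 180.3 TPM (log2 -0.17, limma adjusted p = 0.01) and EIF5A from 639.5 to 585.8 TPM (log2 -0.13, limma adjusted p = 0.016). Neither was called with median-of-ratios scaled or quantile-normalized values. DHPS kept its call in 20 of 23 alternatives and EIF5A in 14 of 23.

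In the methionine cycle and salvage, which supply S-adenosylmethionine and recycle methylthioadenosine, 1 of 9 fell and 1 rose after knockdown. MAT2A, which makes S-adenosylmethionine, fell from 241.4 to 218.9 TPM (log2 -0.14, limma adjusted p = 0.021), which 8 of 23 alternatives did not call. ADI1, a dioxygenase of methionine salvage, rose from 33.7 to 42.3 TPM (log2 0.32, limma adjusted p = 0.0057). Of 5 transport genes, the cationic amino acid carrier SLC7A1 fell from 34.7 to 28.9 TPM (log2 -0.26, limma adjusted p = 0.0041). The transporter heavy chain SLC3A2 rose from 48.1 to 54.4 TPM (log2 0.17, limma adjusted p = 0.024), and 9 of 23 alternatives, the replicate block among them, did not call it.

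In N352S cells 6 of the 28 were lower and 3 higher, with a median log2 of -0.01, beside 20.2% of all tested genes called, 11.9% lower and 8.28% higher. With either alternative scaling 5 were higher. All 3 called transport genes were lower: SLC7A1 (79.1 to 61.1 TPM, log2 -0.37, limma adjusted p = 0.0024), SLC3A2 (171.6 to 132.2 TPM, log2 -0.37, limma adjusted p = 0.0022) and SLC7A2, another cationic amino acid carrier (6.66 to 4.12 TPM, log2 -0.58, limma adjusted p = 0.0056). MAT2A was lower (322.9 to 236.8 TPM, log2 -0.45, limma adjusted p = 1.9e-04), as was AHCY, which clears S-adenosylhomocysteine (171.4 to 148.2 TPM, log2 -0.21, limma adjusted p = 0.0048). EIF5A was lower too (632.7 to 574.9 TPM, log2 -0.14, limma adjusted p = 0.032), and 13 of 22 alternatives did not call it. ASS1 was higher (16.9 to 39.7 TPM, log2 1.18, limma adjusted p = 0.0025), in the opposite direction to its knockdown change, and ADI1 was higher as after knockdown (30.4 to 40.6 TPM, log2 0.41, limma adjusted p = 0.0056). GOT1, named only to complete this count after its values were seen, was higher by a log2 of 0.24 (limma adjusted p = 0.048), a call kept in 8 of 22 alternatives.

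Of 11 genes of the MYC network, all tested, 5 were lower and 1 higher after knockdown, beside 19.8% and 6.19% of all tested genes. MYC fell from 35.8 to 27 TPM (log2 -0.40, limma adjusted p = 4.4e-04) and MYCN from 7.88 to 5.34 TPM (log2 -0.49, limma adjusted p = 0.0012). The MYC antagonists MXI1 (62.3 to 47 TPM, log2 -0.40, limma adjusted p = 0.0024) and MXD3 (34.8 to 25.9 TPM, log2 -0.41, limma adjusted p = 0.0036) fell as well, and MXD4 rose (42.7 to 48.3 TPM, log2 0.17, limma adjusted p = 0.012). MYCL, named only to complete the count after its values were seen, fell by 0.36 on the log2 scale (limma adjusted p = 0.033), a call kept in 9 of 22 alternatives. In N352S cells 3 were lower and 1 higher, beside 11.9% and 8.28% of all tested genes. MYC was lower (57.2 to 38.6 TPM, log2 -0.56, limma adjusted p = 2.0e-04), as were MGA (23.2 to 17.5 TPM, log2 -0.38, limma adjusted p = 0.0029) and MXD4 (46.4 to 40.9 TPM, log2 -0.18, limma adjusted p = 0.031), while MXD3 was higher (29.8 to 40.8 TPM, log2 0.44, limma adjusted p = 0.0088). MYCN, at 4.22 and 5.27 TPM, was not called (limma adjusted p = 0.057). The MXD3 call was lost without wild type 79 or N352S 82, and that of MXD4 in 9 of 22 alternatives. ODC1 and SRM, the members that hold the E-box sequences above, were both not called after knockdown. In N352S cells their log2 fold changes were -0.18 and -1.59, as a description. Any part of the MYC network in these values was not tested.

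**Figure D5:**
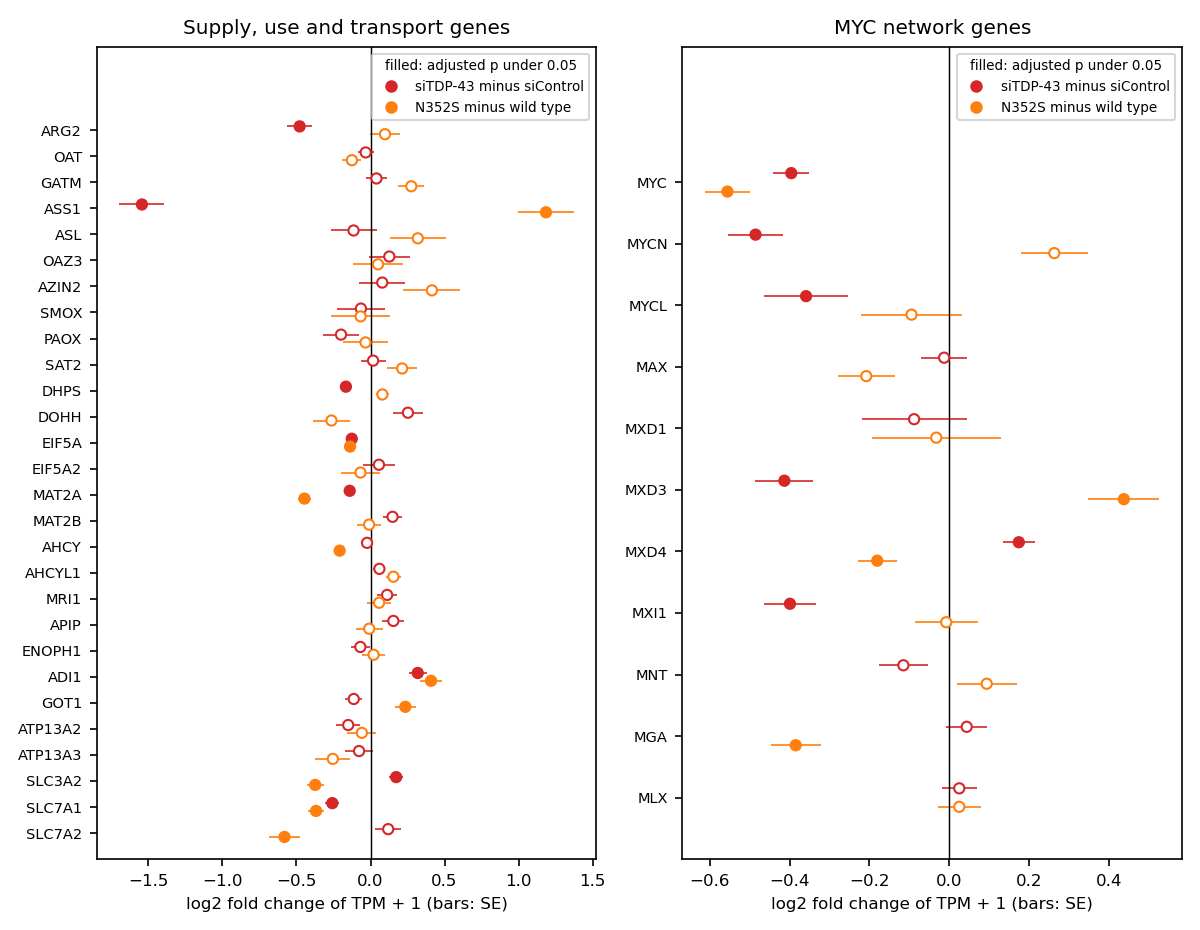
Log2 fold changes of TPM + 1 with SEs (bars) for the 28 tested supply, use and transport genes (left) and the 11 MYC network genes (right), for both comparisons. Filled points passed an adjusted p of 0.05. ASS1 lies at -1.54 after knockdown and at 1.18 in N352S cells.

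Over the 10 libraries, the genes whose log2(TPM + 1) was most like that of SRM were HIRA, TMEM201 and TPRG1L (Pearson r = 0.99, 0.989 and 0.986). The last 2 lie in the stretch of chromosome 1 from SAMD11 to MTOR described above, with N352S log2 fold changes of -1.23 and -0.76. TMEM201 measured 24.3 ± 1.41 TPM in wild type and 9.76 ± 0.275 TPM in N352S libraries (SD, n = 2). For ODC1 the most alike were CCNB1IP1, ACADS and PSAT1 (r = 0.988, 0.984 and 0.984). PSAT1, an enzyme of serine synthesis, had means of 68.3 TPM (siControl), 71.3 (siTDP-43), 143.2 (wild type) and 123.2 (N352S), higher in the genotype experiment like ODC1. For SAT1 they were PHOX2A, RPL39L and NRTN (r = 0.967, 0.953 and 0.952). PHOX2A, a noradrenergic transcription factor, had means of 522.1 TPM (siControl), 407.0 (siTDP-43), 528.4 (wild type) and 648.2 (N352S). These correlations are descriptions over 10 points that share 4 groups and the TPM scale.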

How the data were processed

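RNA was extracted with Trizol and sequenced from TruSeq RNA libraries, per the labels' protocols. The authors deposited TPM per gene. Per the submitters' processing notes the tools were STAR and RSEM and the build hg38. Versions of these tools: not given in the sources used here. Positions came from GENCODE 29, which holds 99.4% of the identifiers, and promoter windows from RefSeq (GRCh38.p14). Members, lists and settings were chosen with earlier results of these data known. Genes averaging at least 1 TPM were fitted as log2(TPM + 1) with limma 3.58.1 in R 4.3.3, using a mean-variance trend and all 4 groups (6 residual degrees of freedom). This assumes that genotype pairs vary like siRNA libraries. P-values were adjusted by Benjamini-Hochberg over the 17118 tested genes, and those under 0.05 were called. The fit was tested on simulated data. Log2 values understate the change of low genes.

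All 9 members were named, with, per comparison, up to 8 called genes of the pathway list and up to 4 of the MYC network with the smallest adjusted p, and the 5 nearest neighbours of SRM on each side. Some genes that these rules take are not reported here. The titles number the siRNA libraries 1 to 3. Same-numbered libraries deviated together (r = 0.34, 0.14 and 0.20 across genes, each over 0.1), so a fit with the number as a block was run as an alternative. The main fit and the ratio tests are unpaired. The genotype libraries carry different numbers. Protein sequences were not used here.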

Additional observations from a re-analysis of the deposited data

Results flagged for a closer look

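The knockdown effect minus the N352S effect, on the log2(TPM + 1) scale, passed the threshold of the fit (limma, Benjamini-Hochberg over all tested genes) for the genes below. Of the members these were SRM (1.74), SAT1 (-1.07), OAZ1 (-0.44) and AZIN1 (-0.58). Their values are a description and no test, since they contain the N352S values on which the genes were selected. SRM was lower in both N352S libraries and not called after knockdown, whereas SAT1, OAZ1 and AZIN1 were lower in 3 of 3 siTDP-43 libraries and higher in 2 of 2 N352S libraries than in any library of their control group. Of all tested genes, 31.7% were lower without overlap after knockdown and 25.4% higher without overlap in N352S cells. The share of genes with both was not counted.

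Of the 28 tested pathway genes 9 passed (5 higher, 4 lower), and of the 11 MYC network genes 5 (2 higher, 3 lower). Of all tested genes 22.0% passed, 8.2% higher and 13.8% lower. Among the pathway genes, ASS1 had a difference of -2.73 (limma adjusted p = 1.0e-04), ARG2 of -0.58 (0.014), DHPS of -0.25 (0.015), GOT1 of -0.35 (0.026), MAT2A of 0.31 (0.0056), SLC3A2 of 0.55 (0.0010), AHCY of 0.18 (0.025) and SLC7A2 of 0.70 (0.0071). DOHH, which completes hypusine and is named after its values were seen, had a difference of 0.52 (limma adjusted p = 0.046) and was called in neither comparison alone. Of the MYC network, MYCN had a difference of -0.75 (limma adjusted p = 0.0015), MXI1 of -0.39 (0.025), MXD3 of -0.85 (0.0010), MGA of 0.43 (0.0056) and MXD4 of 0.35 (0.0044). SLC3A2 and MXD4 rose after knockdown and were lower in N352S cells, and ASS1 and MXD3 moved the other way round.

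TARDBP, which the siRNA targets, had a difference of -1.27. Of the other neighbours of SRM up to MTOR, those past the threshold had positive differences: DFFA 1.04, PEX14 0.81, CASZ1 0.80, EXOSC10 0.53 and MTOR 0.58. The neighbour known only by a clone name had -0.60 and was not past the threshold. DISP3, beyond MTOR, had a difference of -0.58.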

How the results depend on the processing

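Depth is unknown, and 2 libraries a genotype limit the N352S values. Of 594 alternative log2 fold changes of members over the 3 comparisons, 528 kept their direction and their side of the threshold. Part of these could not change. For knockdown or N352S alone, leaving out a library of the other experiment does not move a fold change. A member not called cannot lose a call at a stricter threshold. The N352S comparison and the difference of effects also contain the values that chose the genes, so this count is no test. With the replicate block, knockdown calls over all genes went from 1059 higher and 3389 lower to 857 and 2697, and the counts of members (4 lower, 0 higher) and pathway genes (6 lower, 2 higher) did not change. The genotype libraries could not be blocked. After knockdown, members lower numbered 2 under median-of-ratios scaling, 2 under quantile normalization, 2 at an adjusted p under 0.01, 0 at 1.5-fold and 2 to 4 with a library left out (2 without siTDP-43 1 or 2). Members higher numbered 1 under both scalings and 0 to 0 with a library left out. Pathway genes lower numbered 3 under both scalings, 1 at 1.5-fold and 4 to 6 with a library left out. Pathway genes higher numbered 6 under both scalings, 1 with no filter, 1 at an adjusted p under 0.01, 0 at 1.5-fold and 1 to 3 with a library left out (1 without siControl 1, siTDP-43 1 or siTDP-43 2). In the N352S comparison, members lower numbered 1 with only the genotype groups fitted, 1 at an adjusted p under 0.01, 1 at 1.5-fold and 1 to 3 with a library left out (1 without wild type 80). Members higher numbered 4 under median-of-ratios scaling, 3 under quantile normalization, 0 at 1.5-fold and 1 to 2 with a library left out (2 without siControl 1, siControl 3, siTDP-43 3 or either N352S library). They numbered 2 with a pseudocount of 5, a mean of at least 5 TPM, only the genotype groups or robust eBayes. Pathway genes lower numbered 0 at 1.5-fold and 5 to 6 with a library left out, and those higher 5 under both scalings, 1 at 1.5-fold and 2 to 3 with a library left out. For the difference of effects, members lower numbered 1 at 1.5-fold and 3 to 3 with a library left out, and members higher 2 under both scalings, 2 without mitochondrially encoded genes and 1 to 3 with a library left out (2 without siControl 3 or siTDP-43 1, 3 without N352S 81). AMD1 after knockdown changed sign to a log2 of 0.082 under median-of-ratios scaling, 0.088 under quantile normalization and 0.037 without mitochondrially encoded genes, and ran from -0.036 to 0.033 with a library left out, positive without siControl 2, siTDP-43 1 or siTDP-43 3. The difference of effects changed sign for OAZ2 under quantile normalization (0.014). For SMS it ran from -0.020 to 0.041 with a library left out, negative without siControl 1 or N352S 81. The median of the centromere-side neighbours of SRM moved from 0.11 to -0.25 with 5 genes. With a siRNA library left out, the log2 ratios after knockdown ran from 0.25 to 0.43 for SRM/SMS, 0.25 to 0.32 for ODC1/OAZ1, 0.22 to 0.29 for ODC1/AZIN1, -0.34 to -0.23 for OAZ1/OAZ2, -0.12 to -0.00025 for AMD1/ODC1, -0.94 to -0.62 for SAT1/SRM and -0.42 to -0.21 for MTAP/SRM. The cause of these moves was not tested, apart from the stricter thresholds, which can only remove calls.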
